A study of Mus musculus with 6 samples.

Results

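Phf11a, Phf11b, Phf11c and Phf11d are 4 related genes that lie together on mouse chromosome 14, and their RNA was followed in p53-null prostate cells with and without Rb. They were found on the arrays by the RefSeq accession of each probe, as the 4 genes with these symbols among 20832 named genes. Each had 1 probe of 1 spot, so 4 of 39429 probes were involved. The cluster was chosen by its measured differences in this comparison, because 3 of its 4 genes rose after Rb deletion, so its levels are described here and were not tested. Of all 13731 genes tested, 9.66% rose and 10.8% fell in the same comparison, 20.4% together.

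PHF11 proteins carry a PHD-type zinc finger, a fold found in many proteins that act on chromatin. Human PHF11 has been linked to cytokine gene expression in lymphocytes and to the trimming of broken DNA ends together with RPA, the complex that coats single-stranded DNA. The mouse genes are known to be induced by interferon, the secreted antiviral signal that acts through receptors, JAK kinases and STAT and IRF transcription factors on genes carrying an interferon-stimulated response element (ISRE).

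The cells were primary prostate cells from mice lacking p53 and carrying loxP sites in both copies of Rb, the retinoblastoma tumour suppressor. The Rb intact group (p53-/- Rbf/f) received an adenovirus with lacZ, and the Rb deleted group (p53-/- Rb∆f/∆f) received an adenovirus with Cre recombinase, which removes the loxP-flanked part of Rb. RNA was taken 48 hours after infection, and each group had 3 arrays, numbered 1 to 3, from what the series design calls independent experiments. The comparison asks which genes change when Rb is lost from cells without p53. Because every Rb deleted culture received Cre and every Rb intact culture received lacZ, the vector and the loss of Rb cannot be told apart. Levels below are log2 processed intensity relative to the 75th percentile of the same array, and differences are Rb deleted minus Rb intact.

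The stretch of DNA around the start of transcription of each gene is shown first, since 3 of the genes differed in the same direction, while the fourth was too dim to read a difference from. All 4 genes matched a promoter of the RefSeq table of assembly GRCm38.p6, and all lie on the minus strand. The printed bases run from position -90 to +10, where +1 is the start, at chr14:59297513-59297612 for Phf11a, chr14:59341321-59341420 for Phf11b, chr14:59365481-59365580 for Phf11d and chr14:59393503-59393602 for Phf11c. Capitals mark paired GAAA repeats, with 2 bases between them in Phf11a and Phf11b and 1 base between them in Phf11d.
Phf11a: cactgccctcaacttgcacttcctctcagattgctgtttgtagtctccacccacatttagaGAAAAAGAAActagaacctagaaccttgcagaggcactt
Phf11b: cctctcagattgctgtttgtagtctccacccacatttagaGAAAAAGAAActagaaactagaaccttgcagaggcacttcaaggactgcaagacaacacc
Phf11d: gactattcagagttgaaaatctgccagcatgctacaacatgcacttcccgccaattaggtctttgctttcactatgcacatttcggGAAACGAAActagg
Phf11c: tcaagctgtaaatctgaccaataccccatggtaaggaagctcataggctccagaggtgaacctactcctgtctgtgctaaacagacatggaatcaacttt

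The ISRE core, a GAAA repeat with any 2 bases between its copies, was searched on both strands of the 300 bases from 250 before to 50 after the start. It was present in Phf11a at positions -29 to -20 and in Phf11b at -50 to -41. This core was found in 3.44% of the 32851 promoter windows in the table. Counted by gene, it was in 3.99% of the 27025 genes with a window, and in 26 of the 54 listed interferon-induced genes that had a window. Phf11d did not hold this core. It held the form with 1 base fewer between the repeats, GAAANGAAA, at -4 to +5, across the start of transcription. That form occurred in 3.17% of windows, in 3.70% of genes and in 12 of the 54 interferon-induced genes. It was added to the search after the Phf11 promoters had been read.

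A stretch of 8 bases, GAAACTAG, was present in Phf11a, Phf11b and Phf11d and in 0.81% of all windows. It also was chosen after the promoters had been read, and in each of the 3 genes it overlapped the paired repeats. Phf11b and Phf11d held a further copy, at -37 to -30 and at +36 to +43. The Phf11c window held none of these 3 sequences. No Phf11 window held the GAS core TTCNNNGAA, bound by STAT dimers, which was in 8.30% of all windows. The E2F sites TTTCCCGC, TTTGGCGC and TTTCGCGC, which occurred in 1.07%, 0.514% and 0.323% of windows, were in none of the 4 either. Phf11d held CTTCCCGC, which differs from TTTCCCGC only in its first base, and looser forms of the E2F sites were not searched. E2F factors are the transcription factors that Rb holds in check. A match is a run of letters and not a shown binding site, and a missing match says only that these letters are not in the window.

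**Figure D1:**
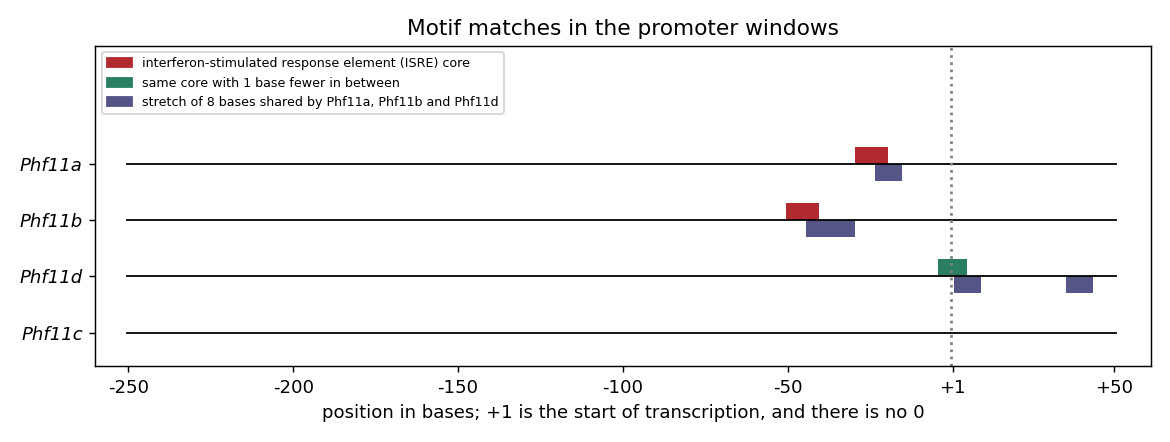
Position of each motif match in the 300-base promoter windows of the 4 Phf11 genes, in bases from the start of transcription. Phf11a and Phf11b carry the ISRE core upstream of the start, Phf11d carries the form with a shorter gap across the start, and Phf11c carries no match.

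The windows of Phf11a and Phf11b were near copies of each other. In a local alignment, 274 of 279 bases, or 98.2%, were identical, with the Phf11b start lying further downstream. Phf11d aligned with Phf11a over 181 columns, of which 133 were identical and 12 were gaps. Phf11c aligned with the others over stretches of only 19 to 21 columns. The RNAs of such close copies may also share signal on a probe, and whether each probe reads only its own gene was not tested.

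Phf11b had the largest difference of the 4. Its level was -2.45, -2.45 and -2.42 on Rb intact arrays 1, 2 and 3, and -1.38, -1.24 and -1.29 on Rb deleted arrays 1, 2 and 3. The Rb intact arrays lay within 0.03 of each other, and the lowest Rb deleted array was 1.04 above the highest of them. Groups that do not overlap were found for 45.2% of all genes tested, and for 23.7% with the Rb deleted arrays higher; the genes here were chosen on this contrast, so nothing is read from that. The group means were -2.44 ± 0.02 and -1.30 ± 0.07 (SD, n = 3), a difference of 1.14 ± 0.06 (SE), or 2.20-fold. In these bulk cultures, more cells with the RNA and more RNA per cell cannot be told apart.

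Phf11a was at 1.47, 1.62 and 1.73 on the Rb intact arrays and at 2.42, 2.38 and 2.33 on the Rb deleted arrays. All Rb deleted arrays were above all Rb intact arrays, with a gap of 0.61, and the spread was wider among the Rb intact arrays. The means were 1.60 ± 0.13 and 2.38 ± 0.04 (SD, n = 3), which differ by 0.77 ± 0.08 (SE), or 1.71-fold. Without Rb intact array 1, the lowest of its group, the difference was 0.70.

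Phf11d was at 3.38, 3.46 and 3.48 on the Rb intact arrays and at 4.06, 4.18 and 4.09 on the Rb deleted arrays. These groups did not overlap either, and the gap between them was 0.58. The means were 3.44 ± 0.05 and 4.11 ± 0.06 (SD, n = 3), a difference of 0.67 ± 0.06 (SE), or 1.59-fold. Phf11d is the member with the smallest difference among the 3 that led to the choice of the cluster, and Phf11c, at 0.06, is the member outside them.

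Phf11c was near the limit of the scanner. Its level was -5.82, -6.02 and -5.88 on the Rb intact arrays and -5.70, -6.03 and -5.82 on the Rb deleted arrays. The groups overlapped, and an array of the Rb deleted group was the lowest of all. The means were -5.91 ± 0.10 and -5.85 ± 0.17 (SD, n = 3), and the difference was 0.06 ± 0.10 (SE), which changed sign under quantile normalisation (-0.03), with normexp background correction (-0.06) and without Rb deleted array 1 (-0.02). The probe was well above background on 1 of 3 Rb intact arrays and on 3 of 3 Rb deleted arrays, so it entered the test only through the Rb deleted group. Its processed intensity was 57.5 to 76.6, or 0.995 to 1.45 times the lowest intensity that counted as well above background on its array. At this signal, a change of the size seen in the other 3 genes may not have been detectable.

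**Figure D2:**
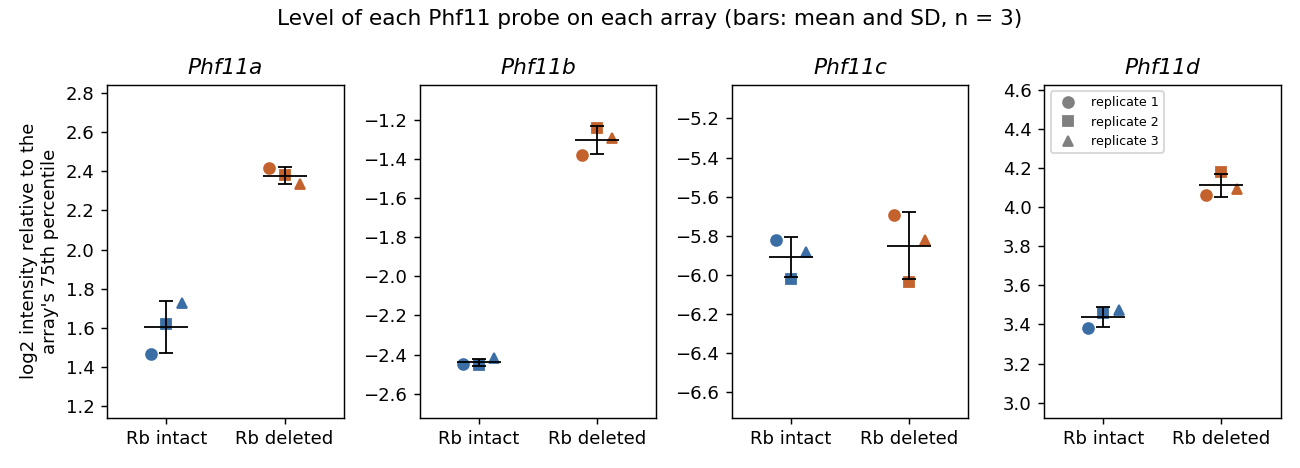
Level of each Phf11 probe on each of the 6 arrays, as log2 processed intensity after subtraction of the 75th percentile, with the mean and SD of each group of 3. The groups are apart for Phf11a, Phf11b and Phf11d and overlap for Phf11c; levels of different probes are not comparable.

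The 3 genes that were higher did not gain equally. With each probe set against its own Rb intact mean, Phf11b stood 1.06, 1.20 and 1.15 higher on Rb deleted arrays 1, 2 and 3. The gains of Phf11a were 0.81, 0.78 and 0.73, and those of Phf11d were 0.62, 0.74 and 0.66. Phf11b thus gained most on each Rb deleted array, by 0.36 ± 0.10 (SD, n = 3) more than Phf11a and by 0.46 ± 0.03 (SD, n = 3) more than Phf11d. Phf11a gained 0.10 ± 0.08 (SD, n = 3) more than Phf11d, a margin of the size of the spread between arrays. These margins come from the contrast that chose the genes and were not tested. They compare changes on different probes, whose response to RNA can differ.

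The arrays lay on 2 slides, and the split ran along the groups in part. Slide 1 held the 3 Rb intact arrays and Rb deleted array 1, and slide 2 held Rb deleted arrays 2 and 3. Rb deleted array 1, the only one that shared a slide with the Rb intact arrays, stood above their mean by 0.81 for Phf11a, 1.06 for Phf11b and 0.62 for Phf11d. The gain of these 3 genes was therefore present on slide 1 alone, at 1 Rb deleted array. The Rb deleted arrays of slide 2 differed from it by -0.06, 0.11 and 0.08 for the 3 genes. For Phf11c the arrays of slide 2 lay 0.23 below it.

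**Figure D3:**
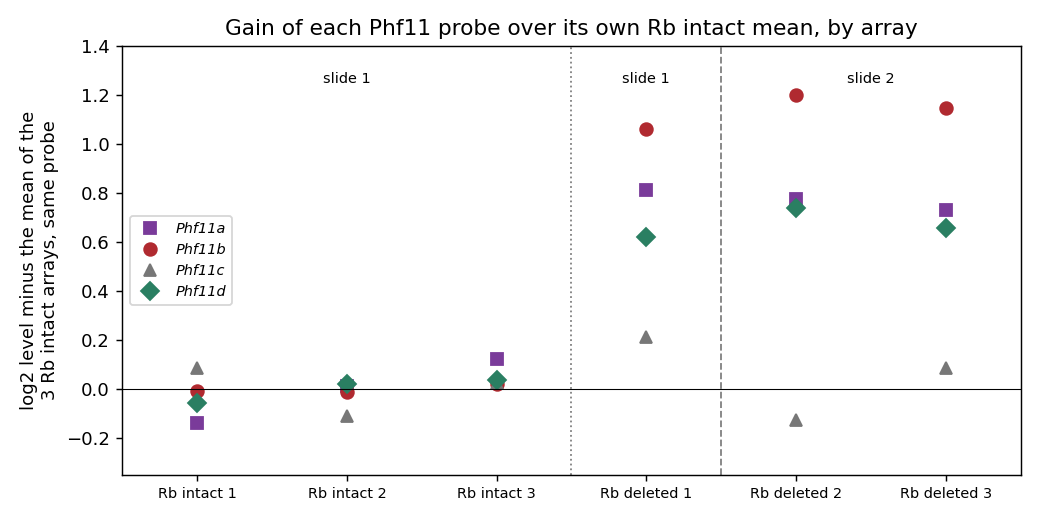
Level of each Phf11 probe minus its own mean over the 3 Rb intact arrays (log2), for every array, with the slide marked. On each Rb deleted array, on slide 1 as on slide 2, Phf11b has the highest gain, Phf11a and Phf11d lie below it, and Phf11c is nearest to 0.

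Over quantile normalisation, normexp background correction, the slide as a block, the authors' deposited log2 values and each array left out in turn, Phf11a lay at 0.70 or more and Phf11d at 0.55 or more. Phf11b kept the highest difference, and its lowest value was 0.93, with normexp background correction. The Phf11c probe was absent from the authors' deposited log2 table, in which the other 3 genes had the same order.

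**Figure D4:**
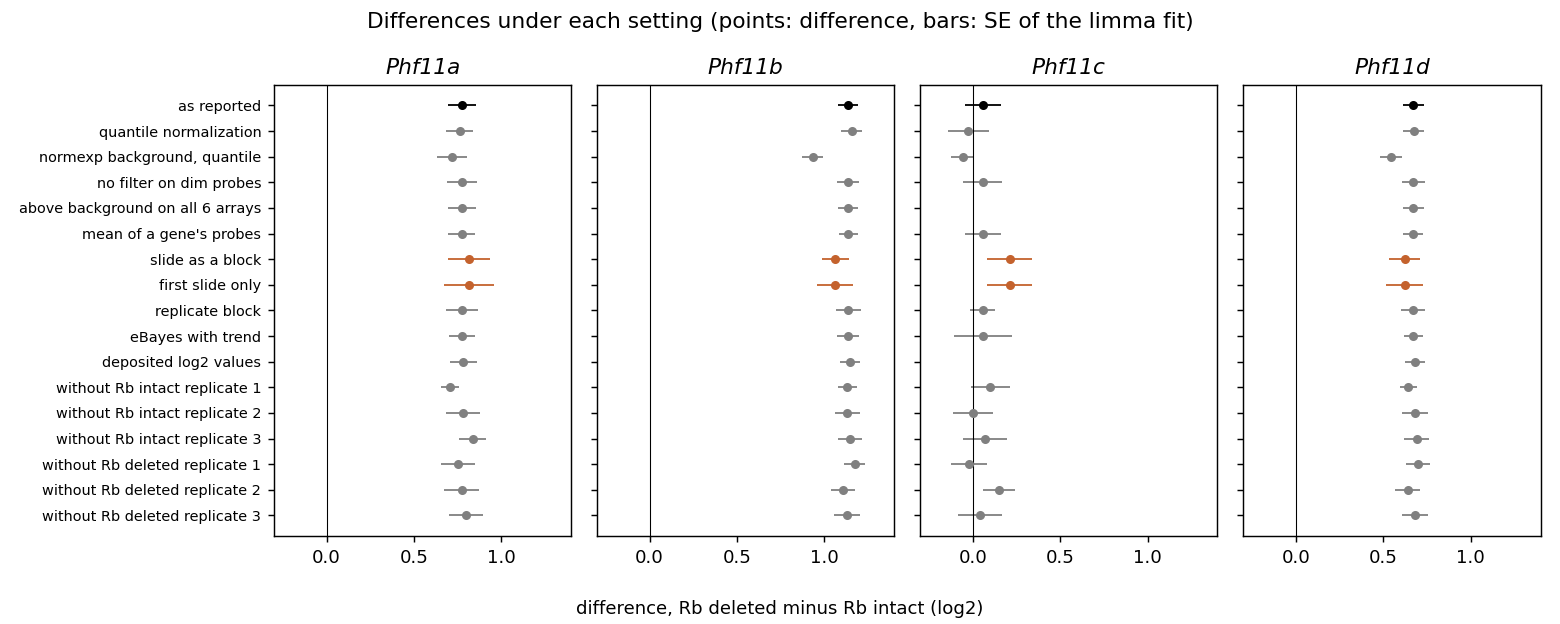
Difference of each Phf11 gene, Rb deleted minus Rb intact (log2), under each way of processing and with each array left out. Phf11a, Phf11b and Phf11d stay above 0 in each, while Phf11c lies on either side of 0.

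The targeted gene lies on the same chromosome. Rb1 fell by 1.96 ± 0.05 (SE), from -1.14 ± 0.02 to -3.10 ± 0.03 (SD, n = 3), with an adjusted p of 8.19e-05 by limma. The labels of the 6 arrays are thus borne out by their Rb1 levels, as far as this probe reads the deleted part of the gene, which was not tested.

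The genes beside the cluster did not pass the test. Among the 20 genes listed on either side of it, 9 code for proteins, 7 had a named probe and 3 were tested with limma. None of the 3 had an unadjusted p under 0.05. Rcbtb1, on one side of the cluster, differed by -0.04 ± 0.09 (SE, adjusted p by limma 0.787). On the other side, Cab39l differed by 0.11 ± 0.06 (SE, adjusted p by limma 0.205) and Cdadc1 by -0.09 ± 0.06 (SE, adjusted p by limma 0.297). Setdb2, a histone methyltransferase gene that adjoins the cluster, had no named probe and was not analysed here.

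Across the 6 arrays, the levels of Phf11a, Phf11b and Phf11d ran closely together, with a Pearson r of 0.977 to 0.996, while Phf11c had an r of 0.13 to 0.21 with them. With 2 groups of 3, such an r mostly repeats the gap between the groups. The number of genes with an r above 0.99 was 59 for Phf11a, 116 for Phf11b, 86 for Phf11d and 0 for Phf11c, out of 13712 compared. The genes most like Phf11a were Foxf2, a forkhead transcription factor (r = 0.999), Prelid2 (r = 0.998) and Fgf2, a growth factor (r = 0.998). These genes were picked for their likeness to a gene chosen on the group difference, so their differences are given with no test. Foxf2 differed by 0.80 ± 0.08 (SE) and Fgf2 by 1.00 ± 0.11 (SE), the latter 0.65 with normexp background correction.

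Phf11b was most like Pck2, the mitochondrial form of PEPCK, Lck, a kinase best known from T cells, and Stambpl1, a deubiquitinase, each with an r of 0.999. Lck differed by 1.07 ± 0.06 (SE), or 2.10-fold. Phf11d was most like Hsd17b1, which makes estradiol, Dnajc21, a co-chaperone, and Fxyd6, a regulator of the sodium pump, each with an r of 0.999. Hsd17b1 differed by 1.33 ± 0.08 (SE), which came to 0.58 with normexp background correction, and its probe was not well above background on all 6 arrays. Dnajc21 differed by 0.37 ± 0.05 (SE). The closest to Phf11c was Nup155, a nuclear pore protein, at an r of 0.970, followed by Msl3l2 and Ttll12.

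The interferon pathway was then read from its ligands to its targets, with gene lists drawn up knowing that interferon genes had moved in these data. Of 8 tested ligand genes, 2 rose, which is 25% of them beside 9.66% of all genes, and none fell by limma. At an unadjusted p under 0.05, 3 were higher and 0 lower. Ifnb1, which encodes interferon beta, was at -5.88, -6.07 and -5.65 on the Rb intact arrays and at -4.98, -4.62 and -4.79 on the Rb deleted arrays. It rose by 1.07 ± 0.14 (SE, adjusted p by limma 0.00389), and by 0.47 with normexp background correction. The probe is dim: it was well above background on 2 of 3 Rb intact arrays and on all 3 Rb deleted arrays, so it entered the test only through the group where it is higher. The share of 25% rests in part on this gene. With only probes above background on all 6 arrays, 1 ligand rose. Ifnl3, a lambda interferon, rose by 0.78 ± 0.21 (SE, adjusted p by limma 0.0458), a call that was lost without Rb intact array 1, 2 or 3 and without Rb deleted array 2 or 3. With the slide as a block its difference was 0.31.

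The 6 interferon alpha genes tested, which are close copies of each other, did not pass. Ifna5 differed by 0.22 ± 0.06 (SE, adjusted p by limma 0.0568) and Ifna11 by 0.42 ± 0.32 (SE), a value that was 0.04 without Rb intact array 2. Ifna1, Ifna2, Ifna14 and Ifnab lay between 0.03 and 0.14. Without Rb intact array 1, Ifna5 and Ifna2 passed the test.

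Among the receptor chains, 1 of 5 tested genes fell, beside 10.8% of all genes, and none rose. At an unadjusted p under 0.05, 0 were higher. Ifngr1, the ligand-binding chain of the interferon gamma receptor, fell by 0.36 ± 0.07 (SE, adjusted p by limma 0.017), and the call was lost without any 1 of the Rb deleted arrays. The chains of the interferon alpha and beta receptor differed by 0.12 ± 0.05 (SE) for Ifnar2 and 0.02 ± 0.06 (SE) for Ifnar1. Ifngr2 stood at 0.02 ± 0.12 (SE) and Il10rb, shared by lambda interferon and interleukin receptors, at 0.00 ± 0.07 (SE).

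Of 17 kinases, transcription factors and inhibitors of interferon signalling, 5 rose and none fell by limma. Those that rose were 29.4% of the 17, beside 9.66% of all genes. At an unadjusted p under 0.05, 9 were higher and 0 lower. Socs3, a feedback inhibitor of JAK kinases, rose by 0.45 ± 0.06 (SE, adjusted p by limma 0.00382). Irf5, an interferon regulatory factor, rose by 0.78 ± 0.11 (SE, adjusted p by limma 0.00586), and Jak2, a kinase of the receptor for interferon gamma, by 0.38 ± 0.06 (SE, adjusted p by limma 0.0086). Irf7, which drives interferon alpha genes, rose by 0.35 ± 0.07 (SE, adjusted p by limma 0.02). Jak2 was lost without Rb deleted array 2, and Irf7 without Rb intact array 2 or 3 or Rb deleted array 2 or 3.

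The targets held the highest share of calls along the pathway. Of 69 tested genes known to be induced by type I interferon, 32 rose, which is 46.4% of them beside 9.66% of all genes, and 1 fell. Their median difference was 0.28, beside 0.01 over all 13731 genes. In 46 of the 69 the Rb deleted arrays all lay above the Rb intact arrays, as they did in 23.7% of the 13731. The count that rose depended on single arrays: it was 48 without Rb intact array 1 and 14 without Rb deleted array 2, and between 19 and 21 without any other.

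Ccl5, a chemokine for T cells, was at 2.05, 2.01 and 2.14 on the Rb intact arrays and at 3.80, 3.87 and 3.80 on the Rb deleted arrays. It rose by 1.75 ± 0.06 (SE), or 3.37-fold, with an adjusted p by limma of 0.000146. Ifi44l, a gene of the antiviral response, rose by 1.45 ± 0.08 (SE, adjusted p by limma 0.000266). Cxcl10, a chemokine, rose by 1.05 ± 0.08 (SE, adjusted p by limma 0.000555) and Gbp5, a guanylate-binding protein, by 1.03 ± 0.07 (SE, adjusted p by limma 0.000464). These 4 are the targets of smallest p. Ranked by difference, Oas3, at 1.16, stood above Cxcl10 and Gbp5. Phf11b stood at 1.14, and as it was chosen on this contrast, nothing is read from its place among the targets. Lgals9 was the target that fell, by 0.24 ± 0.06 (SE, adjusted p by limma 0.034); it was named after its value was seen, and the call was lost without Rb intact array 3 or any 1 of the Rb deleted arrays.

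**Figure D5:**
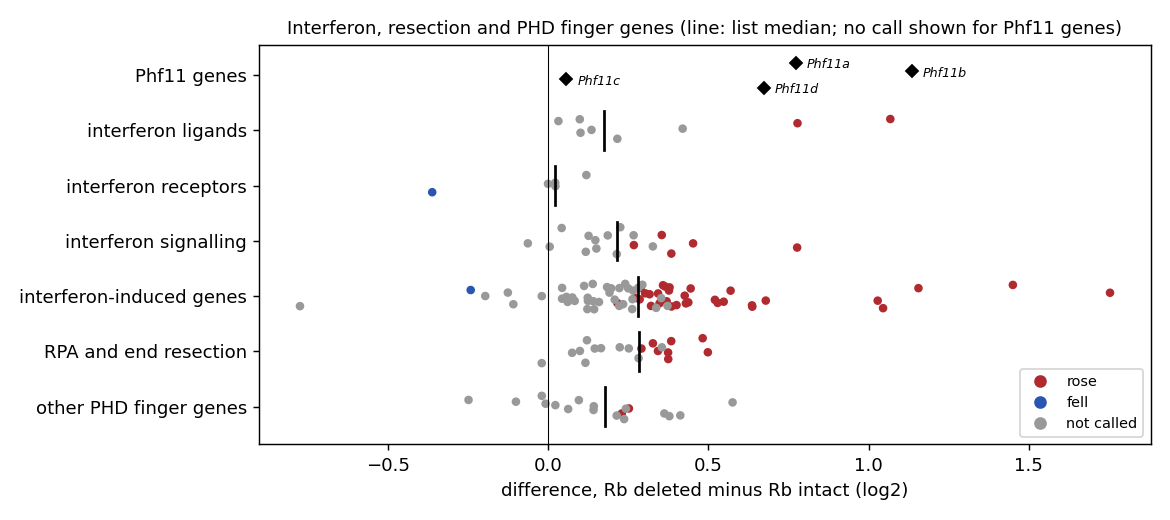
Difference, Rb deleted minus Rb intact (log2), of each tested gene in the lists of interferon ligands, receptor chains, signalling genes and induced genes, of end-resection genes and of other PHD-finger genes, beside the 4 Phf11 genes; red points rose and blue points fell by the test, grey points were not called, and the lines are medians. The induced genes have a median of 0.28, and Phf11b, Phf11a and Phf11d, which were chosen because they rose in this contrast, lie above it.

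The genes that work with RPA in DNA end resection and recombination were read because of the reported role of human PHF11. Of 19 tested, 8 rose and none fell by limma. Those that rose were 42.1% of the 19, beside 9.66% of all genes. At an unadjusted p under 0.05, 11 were higher and 0 lower, and the median difference of the 19 was 0.28. Topbp1, a checkpoint scaffold, rose by 0.38 ± 0.05 (SE, adjusted p by limma 0.00377), with 0.22 and no call under normexp background correction. Rad52, a strand-annealing protein, rose by 0.34 ± 0.05 (SE, adjusted p by limma 0.00638). Rbbp8, which encodes the resection factor CtIP, rose by 0.37 ± 0.06 (SE, adjusted p by limma 0.00705). Blm, a helicase, rose by 0.38 ± 0.06 (SE, adjusted p by limma 0.00964), a call lost without Rb deleted array 3. The count was 12 without Rb intact array 1 and fell to 5, 4 and 3 without Rb deleted arrays 1, 2 and 3.

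Of 18 other tested genes named for a PHD finger, 2 rose and none fell by limma, which is 11.1% of them beside 9.66% of all genes; at an unadjusted p under 0.05, 8 were higher and 1 lower. The count that rose was 0 to 7 when 1 array was left out. Phf6, a chromatin protein, rose by 0.25 ± 0.05 (SE, adjusted p by limma 0.0161), and Phf2, a histone demethylase, by 0.23 ± 0.05 (SE, adjusted p by limma 0.0247). Neither call held when Rb intact array 2 or any 1 of the Rb deleted arrays was left out, and that of Phf2 was also lost without Rb intact array 3. Phf13 differed by 0.24 (adjusted p by limma 0.0532) and Phf19 by 0.38 (adjusted p by limma 0.0565), and both passed without Rb intact array 1.

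With the slide as a block, the number of genes called fell to 201 that rose and 470 that fell, and among the interferon targets to 7 that rose. No ligand, receptor, signalling, resection or other PHD-finger gene was then called by limma, although 1 ligand, 4 signalling, 8 resection and 3 PHD-finger genes were higher and 1 receptor gene was lower at an unadjusted p under 0.05. The median difference of the interferon targets was the same to 2 decimals in that fit, 0.28. Slide 2 held Rb deleted arrays only, so the differences of that fit are those of Rb deleted array 1 from the Rb intact arrays. On slide 1 alone, with 1 Rb deleted array, the calls of Cxcl10 and Gbp5 were lost as well, while Ccl5 and Ifi44l still passed.

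Markers of other cells were read beside the interferon genes. Ptprc, the pan-leukocyte marker, was well above background on none of the 6 arrays, nor were Cd3g, Cd8a, Ms4a1 and Lyz2. Of 14 leukocyte markers on the arrays, 6 were well above background on all arrays, namely Cd3e, Cd4, Nkg7, Itgam, Csf1r and Cd14, and Cd14 rose by 0.36 ± 0.06 (SE, adjusted p by limma 0.0133). The summed leukocyte level, in units of the 75th percentile of an array, was 5.12 to 9.56 on Rb intact arrays and 7.59 to 8.05 on Rb deleted arrays. That sum adds probes of different brightness and follows Itgam, which ran from 0.73 to 2.44 on Rb intact arrays, so its overlap says little of the other markers. Nkg7 differed by 0.25 ± 0.08 (SE, adjusted p by limma 0.0763) with groups that did not overlap. Itgax, well above background on 2 of 6 arrays, was at -8.44 to -8.10 on Rb intact arrays and at -6.15 to -5.73 on Rb deleted arrays.

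Listed markers of prostate epithelium were read in the same way, and some were well above background while others were not. Whether they bear out the prostate label was not tested. The basal markers Krt14, Trp63, Itga6, Cd44 and Dst and the luminal markers Krt8, Krt18, Krt19 and Cldn3 were well above background on all arrays. Of these, Krt14 (-5.17 to -4.67), Krt8 (-5.22 to -4.42) and Krt19 (-5.94 to -4.71) were dim over the 6 arrays. Krt15 and Psca were well above background on none, the luminal markers Pbsn and Tmprss2 on 1 of 6 arrays each, and the basal marker Krt5 on 3 of 6. The summed basal level was 44.0 to 50.1 on Rb intact arrays and 34.2 to 35.9 on Rb deleted arrays, and 3 of 5 tested basal markers fell, namely Itga6, Dst and Trp63. The basal sum is carried by Itga6 and Cd44, its brightest probes. Cd44 differed by -0.12 ± 0.06 (SE) and Krt14 by 0.07 ± 0.14 (SE), and neither was called. The summed luminal level was 10.8 to 12.2 and 9.26 to 10.7, and 1 of 4 tested luminal markers, Cldn3, fell. The luminal sum is carried by Krt18, its brightest probe. The dim Krt8 went the other way, by 0.42 ± 0.13 (SE, adjusted p by limma 0.0679), with groups that did not overlap. Of all genes tested, 10.8% fell. Of 10 fibroblast and smooth muscle markers, 9 were well above background on all arrays, and their sum was 373.1 to 387.7 and 339.8 to 367.4. That sum is carried by its brightest probes. Acta2, the smooth muscle actin that also marks myofibroblasts, was at 2.73, 3.30 and 3.15 on the Rb intact arrays and at 1.73, 1.66 and 1.74 on the Rb deleted arrays. It fell by 1.35 ± 0.14 (SE, adjusted p by limma 0.00218), and Lum, a matrix proteoglycan of fibroblasts, fell by 0.40 ± 0.06 (SE, adjusted p by limma 0.00842). Of 9 tested fibroblast and smooth muscle markers, these 2 fell and none rose by limma. Col1a2, Pdgfra and Dcn, the 3 above 0, differed by 0.00, 0.02 and 0.08. The share of each cell type was not measured, and its part in the differences of the Phf11 genes was not tested.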

How the data were processed

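Cy3-labelled RNA of 6 samples was hybridised to 1-colour Agilent arrays. The authors' scanner software, Agilent Feature Extraction, gave the intensity of each spot after background subtraction, per the file headers. Those headers name release 11.0.1.1, and the submitters' processing notes name 10.7.3.1. The deposited files also flag spots above background, saturated or outlying. The authors' deposited log2 table held 22164 of the probes and equalled log2 processed intensity minus a constant per array, within 0.01 for at least 99.95% of them, with column medians of -0.52 to -0.49; how those constants were set stays unknown.

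Of 43020 non-control spots per array, outlying ones were left out and spots of a probe averaged. Log2 processed intensity minus each array's 75th percentile gave the level. Probes well above background on all 3 arrays of a group were kept (23051 of 39429), named through RefSeq accessions (27427 probes matched, 12002 unnamed), and the brightest probe stood for a gene. The share of probes above background was 59.0% to 63.3% per array, no spot was saturated, and the number of arrays limits the precision. Rb deleted was set against Rb intact in R 4.3.3 by limma 3.58.1 (lmFit, eBayes, no block), with Benjamini-Hochberg adjusted p under 0.05 over all 13731 genes as the threshold. The fit was tested on simulated data. The median difference of all genes was 0.01.

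The members and lists were chosen with earlier results of these data known. Genes named are the members, Rb1, tested neighbours, the 4 smallest p per list (all ligands and receptors) and the 3 genes of highest r per member. Alignment and motif searches used Biopython 1.88 (match 1, mismatch -1, gap opening -2, gap extension -1). Alternatives were quantile scaling, normexp with offset 50, other dim-probe filters and probe rules, slide and replicate blocks, a variance trend, the deposited values and each array left out. Some cell type markers are not reported here and were left out of the summed levels.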

Additional observations from a re-analysis of the deposited data

How the results depend on the processing

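The differences of the 4 Phf11 genes were 0.70 to 0.84 for Phf11a, 1.10 to 1.17 for Phf11b, -0.02 to 0.15 for Phf11c and 0.64 to 0.70 for Phf11d when 1 array was left out in turn. Normexp background correction with quantile scaling gave 0.93 for Phf11b, 0.55 for Phf11d and -0.06 for Phf11c, and left 0 receptor genes that fell (1 at an unadjusted p under 0.05 by limma). It also lowered Ifna5 to 0.08, Ifna11 to 0.14 and Phf19 to 0.25, and the mean over a gene's probes gave 0.13 for Phf13. With the slide as a block or on the first slide only, Phf11b stood at 1.06.

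Without 1 array, limma called 465 (without Rb deleted array 2) to 2621 (without Rb intact array 1) genes that rose and 781 (without Rb deleted array 3) to 2488 (without Rb intact array 1) that fell. By list, 1 to 3 ligands rose, 0 to 1 receptors fell, 2 to 9 signalling genes rose, 14 to 48 interferon targets rose and 0 to 1 fell, 3 to 12 resection genes rose and 0 to 7 other PHD-finger genes rose. The highest counts that rose came without Rb intact array 1.

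Taking the slide as a block, limma called 201 genes that rose and 470 that fell, with 7 interferon targets that rose, 0 that fell, and 0 called among ligands, receptors, signalling, resection and PHD-finger genes. On the first slide only, where the Rb deleted group is 1 array assumed to vary like the others, 27 genes rose and 124 fell, with 2 targets that rose and 0 called in the other lists; at an unadjusted p under 0.05, 23 targets, 6 resection, 3 signalling and 2 ligand genes were higher. Without a filter on dim probes, 610 rose and 880 fell, with 19 targets that rose and 0 that fell, 3 signalling genes, 1 ligand, 0 PHD-finger genes (7 at an unadjusted p under 0.05) and 0 receptors. With only probes above background on all 6 arrays, or the deposited log2 values, 1 ligand rose. A variance trend gave 4 PHD-finger genes that rose.

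With the replicate number as a block, 698 genes rose and 962 fell, with 19 targets that rose and 0 that fell, 5 resection genes, 3 signalling genes, 1 ligand and 0 PHD-finger genes (7 at an unadjusted p under 0.05). Arrays with the same number did not deviate together (r of -0.03, -0.05 and 0.02 over 13713 genes). With 3 arrays a group, and the Rb deleted arrays split over the slides, this cannot decide whether the numbers pair the samples. The cause of these changes was not tested. No result reversed its direction after being called. Signal over background limits Phf11c, and 3 arrays a group limit the rest.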
